A study of Mus musculus with 14 samples.

Results

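The 9 genes described here, *Fn1*, *Thbs1*, *Tgfbi*, *Lgals1*, *Lgals3*, *Mmp12*, *Mmp14*, *Adam8* and *Vim*, encode extracellular matrix and matricellular proteins, galectins, matrix-cleaving proteases and an intermediate filament protein. They are 9 of the 33939 genes measured and were taken by symbol. Their name as injury genes points to measured IL against CL differences, so they are treated here as chosen by those values. CD11b+ cells were taken with magnetic beads from both hemispheres at 3 days after a traumatic brain injury (TBI) made by controlled cortical impact, and their RNA was sequenced. The ipsilateral hemisphere (IL) carried the impact and the contralateral hemisphere (CL) had no lesion. There were 4 groups, with 4 libraries for each hemisphere of Ctrl mice and 3 for each hemisphere of cKO mice. Their mouse numbers belong to 8 mice, of which 6, namely 4 Ctrl and 2 cKO, gave both hemispheres, while cKO mouse 784 gave IL only and cKO mouse 788 gave CL only. All mice were C57BL/6, 8 to 12 weeks old and male, and all received tamoxifen and carried *Cx3cr1-CreER* on a single allele (Cx3cr1-CreER+/-). The cKO mice also carried a loxP-flanked gene on both alleles, so that tamoxifen deleted that gene in cells that used *Cx3cr1*. This promoter is used by microglia and also by other myeloid cells, and the CD11b beads take microglia together with myeloid cells that entered from the blood. The authors waited between tamoxifen and injury so that *Cx3cr1*+ blood monocytes could be replenished, to keep effects on those cells small. How far cells from the blood carried the deletion was not tested here.

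After tissue damage, microglia and macrophages secrete and remodel the matrix around a lesion. Fibronectin (*Fn1*), thrombospondin-1 (*Thbs1*) and the TGF-beta-induced protein (*Tgfbi*) are secreted and bind integrins and other receptors on the cell surface. Galectin-1 (*Lgals1*) and galectin-3 (*Lgals3*) are lectins that bind beta-galactosides on glycoproteins. Macrophage elastase (*Mmp12*) and the membrane-bound metalloproteinase MT1-MMP (*Mmp14*) cut matrix proteins, *Adam8* is a membrane-bound metalloprotease of leukocytes that sheds surface proteins, and vimentin (*Vim*) builds the intermediate filaments of macrophages and other motile cells.

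Values are CPM, the reads of a gene per 1e+06 reads of the library. The depth was 12.2 to 41.6 M reads per library. The fewest reads behind a value of the 9 genes were about 96.0, for *Mmp12* in the Ctrl CL library of mouse 3551. Of the 5 genes that mark CD11b+ cells, summed levels were 8063 to 13840 CPM per library, and the summed level of 8 homeostatic microglial markers was 25520 to 34248 CPM in CL and 14483 to 15807 CPM in IL. Some libraries stood apart and are named beside the results they touch. In the Ctrl IL library of mouse 3546, the shallowest, 382 genes with under 1 kb of exons had a median log2 difference of -1.82 from the other Ctrl IL libraries, against -0.09 for 8667 longer genes. The cKO CL library of mouse 3592 had the highest summed level of 8 fibroblast and pericyte markers, 149.5 CPM, against 33.2 to 48.6 CPM in the other CL libraries.

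The promoter windows of 3 of the protease genes are shown because these genes hold the clearest difference between genotypes (*Mmp14*) and the widest and narrowest spreads between hemispheres among the proteases. RefSeq promoters on GRCm38.p6 were at hand for 6 of the 9 genes, in 7 windows. Each line gives the 250 bases upstream of a RefSeq transcription start, 5′ to 3′ on the strand of the gene, with matches to the searched motifs in capitals.
Mmp14, chr14:54431348-54431597, plus strand: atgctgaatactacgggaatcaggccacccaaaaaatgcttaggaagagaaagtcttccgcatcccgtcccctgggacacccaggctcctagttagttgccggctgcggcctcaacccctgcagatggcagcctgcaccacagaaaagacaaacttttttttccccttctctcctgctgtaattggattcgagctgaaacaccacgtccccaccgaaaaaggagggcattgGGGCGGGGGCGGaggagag
Adam8, chr7:139992563-139992812, minus strand: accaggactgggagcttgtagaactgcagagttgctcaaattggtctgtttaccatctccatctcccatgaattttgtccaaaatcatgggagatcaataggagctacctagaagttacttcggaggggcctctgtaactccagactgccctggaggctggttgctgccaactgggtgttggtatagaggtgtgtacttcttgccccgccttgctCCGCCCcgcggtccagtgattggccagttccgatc
Mmp12, chr9:7344147-7344396, plus strand: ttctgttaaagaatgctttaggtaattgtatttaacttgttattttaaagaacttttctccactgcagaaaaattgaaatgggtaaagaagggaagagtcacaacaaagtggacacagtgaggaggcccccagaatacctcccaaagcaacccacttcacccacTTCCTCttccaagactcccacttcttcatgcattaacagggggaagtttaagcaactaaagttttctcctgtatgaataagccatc
The *Mmp14* and *Adam8* windows lie outside annotated GENCODE exons, and the last 16 bases of the printed *Mmp12* window lie in its first exon. The capitals in *Mmp14* are adjacent GC boxes (GGGCGG) that begin 19 and 13 bases upstream of the start, those in *Adam8* are a GC box read on the other strand that begins 35 bases upstream, and those in *Mmp12* are the PU.1 core GAGGAA read on the other strand, 86 bases upstream. On both strands, 32.7% of 32851 mouse promoter windows of the same length held a GC box and 23.3% held GAGGAA, against 4 and 2 of the 7 windows. The AP-1 letters TGANTCA stood in 1 of the 7 windows, that of a second *Mmp12* start (chr9:7347124-7347373, not printed), 44 bases upstream of it, and in 6.75% of all, and TATAAA in 1 of 7 and in 12.4% of all. A match is only a match of letters.

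Across the hemispheres, the 9 genes were measured first as levels. The IL and CL difference was counted as used in the choice of these genes, since they are named for injury, so their values there are a description without a test. In bulk libraries, fewer cells of a type and less RNA per cell cannot be told apart. Of the 3 matrix and matricellular genes, *Fn1* (chr1:71585520-71653200, minus strand, 45 exonic stretches) was at 28.4, 15.1, 31.7 and 34.2 CPM in the Ctrl CL libraries of mice 3541, 3545, 3546 and 3551, and at 244, 310, 686 and 588 CPM in IL of the same mice. In cKO it was at 18.3 (mouse 788), 49.3 (791) and 103 CPM (3592) in CL, and at 382 (784), 460 (791) and 586 CPM (3592) in IL. Every IL library lay above every CL library, by a fitted log2 difference of 4.02 in Ctrl and 3.42 in cKO. Without 1 library at a time it was 3.83 to 4.21 in Ctrl and 2.81 to 3.99 in cKO. The Ctrl IL libraries spread over a 2.81-fold range.

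*Thbs1* (chr2:118111876-118127133, plus strand) encodes a secreted glycoprotein that binds CD36 and CD47. In Ctrl it was at 58.7, 22.5, 75.6 and 37.6 CPM in CL and at 1031, 1152, 1389 and 1037 CPM in IL, in the same order of mice. In cKO it was at 61.8, 37.5 and 136 CPM in CL (788, 791, 3592) and at 173, 462 and 629 CPM in IL (784, 791, 3592). The injured side was higher in both genotypes without overlap, and the 4 Ctrl IL libraries lay close together while the cKO IL libraries spread over a 3.64-fold range. Within a mouse, IL exceeded CL 17.6- to 51.3-fold in the 4 Ctrl mice and 4.61- and 12.3-fold in the 2 cKO mice.

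*Tgfbi* (chr13:56609523-56639562, plus strand), which binds collagens and integrins, was the steadiest of the 9 genes in Ctrl CL, at 102, 108, 109 and 111 CPM. It was at 525, 447, 642 and 422 CPM in Ctrl IL, and in cKO at 65.6, 84.4 and 140.5 CPM in CL and at 358, 401 and 435 CPM in IL. The log2 difference between hemispheres was 2.29 in Ctrl and 2.18 in cKO, and no IL library reached down to a CL library of its genotype.

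Of the 2 galectins, *Lgals3* (chr14:47367751-47386160, plus strand) was at 140.5, 69.5, 53.9 and 35.8 CPM in Ctrl CL and at 939, 735, 410 and 465 CPM in Ctrl IL. In cKO it was at 51.9, 70.2 and 217 CPM in CL and at 631, 666 and 713 CPM in IL. The cKO IL libraries were alike within 1.13-fold, and both genotypes were higher in IL without overlap, by 3.24 and 2.92 on the log2 scale in Ctrl and cKO. Without 1 library at a time these differences were 2.93 to 3.65 in Ctrl and 2.54 to 3.52 in cKO. *Lgals1* (chr15:78926725-78930465, plus strand) was at 40.9, 38.4, 18.0 and 35.3 CPM in Ctrl CL and at 265, 222, 31.0 and 198 CPM in Ctrl IL. In cKO it was at 19.0, 32.2 and 84.0 CPM in CL and at 133, 145 and 235 CPM in IL. The Ctrl groups overlapped through a single library, the IL library of mouse 3546 at 31.0 CPM, and *Lgals1*, with 903 bases of exons, belongs to the genes under 1 kb that were low in it. The part of that low reading in the *Lgals1* values was not tested. The Ctrl difference was 2.16 on the log2 scale with that library and 2.93 without it. The cKO difference was 2.20, and 2.77 without the CL library of mouse 3592, the highest of its group.

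Among the proteases, *Adam8* (chr7:139978932-139992562, minus strand) covered the widest range. It was at 42.5, 15.5, 25.2 and 11.5 CPM in Ctrl CL and at 331, 349, 359 and 267 CPM in Ctrl IL, and in cKO at 13.2, 20.6 and 52.4 CPM in CL and at 191, 331 and 288 CPM in IL. The hemispheres did not overlap in either genotype, with log2 differences of 3.95 in Ctrl and 3.46 in cKO. *Mmp12* (chr9:7344381-7369499, plus strand) had the lowest levels, with 11.8, 8.02, 8.401 and 5.97 CPM in Ctrl CL, 21.2, 21.4, 19.1 and 14.7 CPM in Ctrl IL. In cKO it was at 10.9, 7.68 and 9.95 CPM in CL and at 14.95, 25.0 and 12.1 CPM in IL. Its log2 differences, 1.16 in Ctrl and 0.84 in cKO, were the smallest of the 9 genes.

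*Mmp14* (chr14:54431612-54445364, plus strand), which also activates other metalloproteinases at the cell surface, differed from the rest in its CL values. It was at 30.4, 12.1, 29.8 and 15.5 CPM in Ctrl CL, but at 57.7, 60.8 and 60.6 CPM in cKO CL. In IL it was at 106, 74.2, 111 and 69.3 CPM in Ctrl and at 115, 126 and 108 CPM in cKO. Every cKO CL library lay above every Ctrl CL library, and the cKO IL libraries overlapped the top of the Ctrl IL range. Within a mouse, IL exceeded CL 3.48- to 6.14-fold in Ctrl and 1.79- and 2.07-fold in cKO.

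*Vim* (chr2:13573927-13582826, plus strand) was at 109, 69.5, 43.0 and 65.7 CPM in Ctrl CL and at 428, 478, 321 and 320 CPM in Ctrl IL. In cKO it was at 50.5, 51.3 and 133 CPM in CL and at 345, 452 and 425 CPM in IL. The hemispheres did not overlap, and the log2 differences of 2.54 in Ctrl and 2.59 in cKO were nearly equal.

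**Figure D1:**
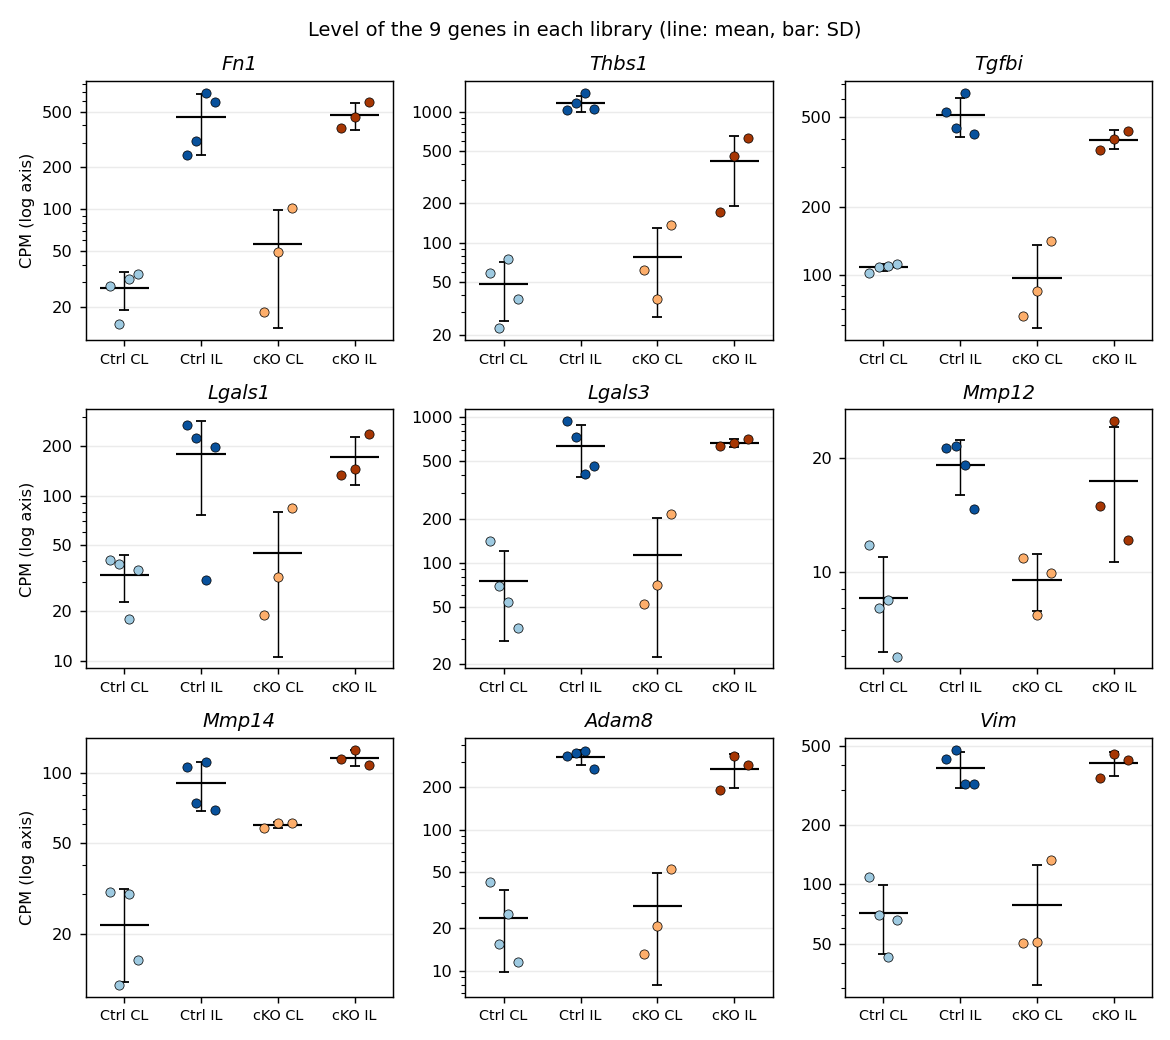
Level of each of the 9 genes in CPM on a log axis, with a point per library, a line at the group mean and a bar of 1 SD (4 libraries in Ctrl groups, 3 in cKO groups). The IL points lie above the CL points of the same genotype for every gene except *Lgals1* in Ctrl, where the library of mouse 3546 sits at 31.0 CPM, and the cKO CL points of *Mmp14* lie between 57.7 and 60.8 CPM, above all Ctrl CL points.

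In all, 8 of the 9 genes passed the threshold of the IL against CL comparison in Ctrl and 8 in cKO, each of them higher in IL. The exceptions were *Lgals1* in Ctrl and *Mmp12* in cKO. Both hemispheres came from the same mice, save for cKO mice 784 and 788. With the mouse as a fixed replicate block the count was 9 in Ctrl, with *Lgals1*, and 8 in cKO. In cKO that block rests on the 2 mice that gave both hemispheres. With the mouse as a random effect over all 14 libraries, *Mmp12* was called in cKO as well. Over the fits that left out a library the count was 7 to 9 in each genotype, through *Lgals1* and *Mmp12* in Ctrl and *Thbs1* and *Mmp12* in cKO. A gene was called here when its adjusted limma p was 0.05 or less and its change 1.2-fold or more, and 3.63% of 16376 genes were called higher in Ctrl and 12.8% of 16757 in cKO, while 2.96% and 9.52% were called lower. The choice of the genes used this contrast, so nothing is read from these counts. The libraries did not overlap for 8 genes in Ctrl and 9 in cKO, against 6.26% and 18.1% of all genes that were higher without overlap.

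**Figure D2:**
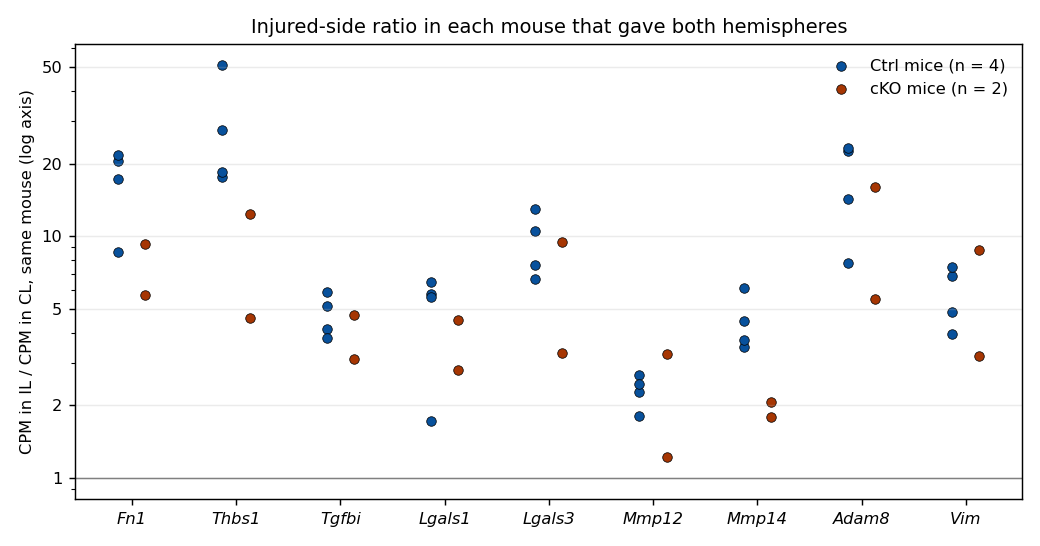
Ratio of the IL value to the CL value within each mouse that gave both hemispheres, on a log axis, for 4 Ctrl and 2 cKO mice, with a grey line at a ratio of 1. All ratios lie above 1, from 1.22 (*Mmp12* in a cKO mouse) to 51.3 (*Thbs1* in a Ctrl mouse), and for *Thbs1* and *Mmp14* both cKO mice lie below all 4 Ctrl mice.

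Levels of different genes were compared per kb of exons. In Ctrl IL, *Lgals3* was highest at 343 ± 133 CPM per kb (SD, n = 4), followed by *Lgals1* at 198 ± 114, *Thbs1* at 190 ± 27.6 and *Tgfbi* at 135 ± 26.2 CPM per kb. The libraries of each of these neighbours in the order overlapped. *Vim* at 81.5 ± 16.7 CPM per kb lay below *Tgfbi* without overlap, and overlapped *Adam8* at 70.4 ± 8.96 CPM per kb, which overlapped *Fn1* at 39.1 ± 18.3 CPM per kb. *Mmp14* at 15.1 ± 3.59 and *Mmp12* at 2.64 ± 0.43 CPM per kb lay lowest, each below the gene before it without overlap. In cKO IL the order was the same but for *Thbs1*, which stood behind *Tgfbi* and *Vim* at 69.4 ± 38.0 CPM per kb (SD, n = 3). On the CL side, *Lgals3* at 40.3 ± 24.7 and *Lgals1* at 36.7 ± 11.4 CPM per kb led in Ctrl, as they did in cKO, and *Mmp12* was again lowest at 1.18 ± 0.33 CPM per kb.

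The comparison of cKO and Ctrl asked whether deletion of the targeted gene in Cx3cr1-expressing cells was accompanied by other levels of these genes. In the IL hemispheres, *Thbs1* was at 421 ± 231 CPM in cKO (SD, n = 3) and at 1153 ± 167 CPM in Ctrl (SD, n = 4), and all 3 cKO libraries lay below all 4 Ctrl libraries. The log2 fold change was -1.62 (SE 0.37, 95% confidence interval -2.46 to -0.77), with an unadjusted limma p of 0.0021 and an adjusted p of 0.139 over 16873 genes, so *Thbs1* was not called. Of all genes, 5.48% were lower in cKO IL without overlap. The cKO library of mouse 784 held the lowest value, 173 CPM, and without it the log2 fold change was -1.08. The adjusted p ranged from 0.068 to 0.326 over all alternatives, and *Thbs1* was called in none of them.

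The other 8 genes had log2 fold changes from -0.33 to 0.41 in IL and overlapping libraries. *Mmp14* had 116 ± 8.93 CPM in cKO and 90.1 ± 21.4 CPM in Ctrl, with a log2 fold change of 0.41 (SE 0.20, interval -0.05 to 0.86), and *Tgfbi* had 398 ± 38.5 and 509 ± 98.9 CPM, and its log2 fold change was -0.33 (SE 0.15, interval -0.68 to 0.02). The intervals of *Fn1* (-0.47 to 0.82), *Lgals3* (-0.63 to 0.96), *Mmp12* (-0.84 to 0.51), *Adam8* (-0.79 to 0.22) and *Vim* (-0.45 to 0.65) all held 0. That of *Lgals1* was the widest, -1.41 to 1.95, and its log2 fold change of 0.27 became -0.50 without the Ctrl IL library of mouse 3546. In all, 0 of the 9 genes were called by limma and 1 had an unadjusted p under 0.05, beside 0.658% of all genes called and 8.9% with an unadjusted p under 0.05. The median log2 fold change of the 9 genes was 0.10, against 0.01 over all genes tested. No other tool was run.

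In the CL hemispheres, *Mmp14* was at 59.7 ± 1.73 CPM in cKO (SD, n = 3) and at 22.0 ± 9.53 CPM in Ctrl (SD, n = 4), with the cKO libraries above all Ctrl libraries, as 3.98% of all genes were. The log2 fold change was 1.498 (SE 0.30, interval 0.83 to 2.16), and the adjusted limma p was 0.0505, just over the threshold of 0.05. The value stayed between 1.30 and 1.74 over all alternatives, while the call depended on them. *Mmp14* was called under 5 of 11 other settings, among them the fit of all 14 libraries, with an adjusted p of 0.012 without a block and 0.0049 with the mouse as a random effect (replicate block). It was also called without the Ctrl CL library of mouse 3541 (adjusted p = 0.0082) and without that of mouse 3546 (adjusted p = 0.043), and in none of the other 5 fits that left out a library, with adjusted p up to 0.208. Beside this difference, the summed neutrophil markers ranged from 1365 to 8086 CPM in Ctrl CL and from 1283 to 2276 CPM in cKO CL, and the endothelial markers from 65.4 to 207 and from 46.5 to 115 CPM. Both of these lists overlapped between the genotypes. Of all marker lists, those of oligodendrocytes and B cells did not, with 220 to 310 CPM in Ctrl CL and 176 to 215 CPM in cKO CL for the former and 28.9 to 43.4 and 24.7 to 25.7 CPM for the latter. The part of these cells in the *Mmp14* values was not tested.

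The remaining 8 genes had log2 fold changes from -0.23 to 0.77 in CL. *Fn1* was at 56.8 ± 42.7 CPM in cKO and 27.4 ± 8.50 CPM in Ctrl, with a log2 fold change of 0.77 (SE 0.45, interval -0.22 to 1.75), and *Thbs1* had 78.5 ± 51.4 and 48.6 ± 23.3 CPM, and its log2 fold change was 0.61 (SE 0.44, interval -0.36 to 1.58). Single libraries moved both values, that of *Fn1* to 0.22 without the cKO library of mouse 3592 and to 1.38 without that of mouse 788, and that of *Thbs1* to 0.14 without mouse 3592 and to 1.04 without mouse 791. The intervals of *Tgfbi* (-0.71 to 0.25), *Lgals1* (-0.76 to 1.203), *Lgals3* (-0.70 to 1.65), *Mmp12* (-0.47 to 0.77), *Adam8* (-0.89 to 1.29) and *Vim* (-0.83 to 0.90) held 0 as well. For 7 of the 9 genes the library of mouse 3592 was the highest of the cKO CL libraries, and without it the log2 fold changes of *Lgals1*, *Lgals3*, *Adam8* and *Vim* turned from above to below 0, to -0.33, -0.11, -0.31 and -0.39. That library was also the one with 149.5 CPM of fibroblast and pericyte markers, whose part in these levels was not tested. In all, 0 of the 9 genes were called by limma and 1 had an unadjusted p under 0.05, beside 0.875% of all genes called and 9.81% with an unadjusted p under 0.05. The median of the 9 genes was 0.22, against -0.06 over all genes.

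**Figure D3:**
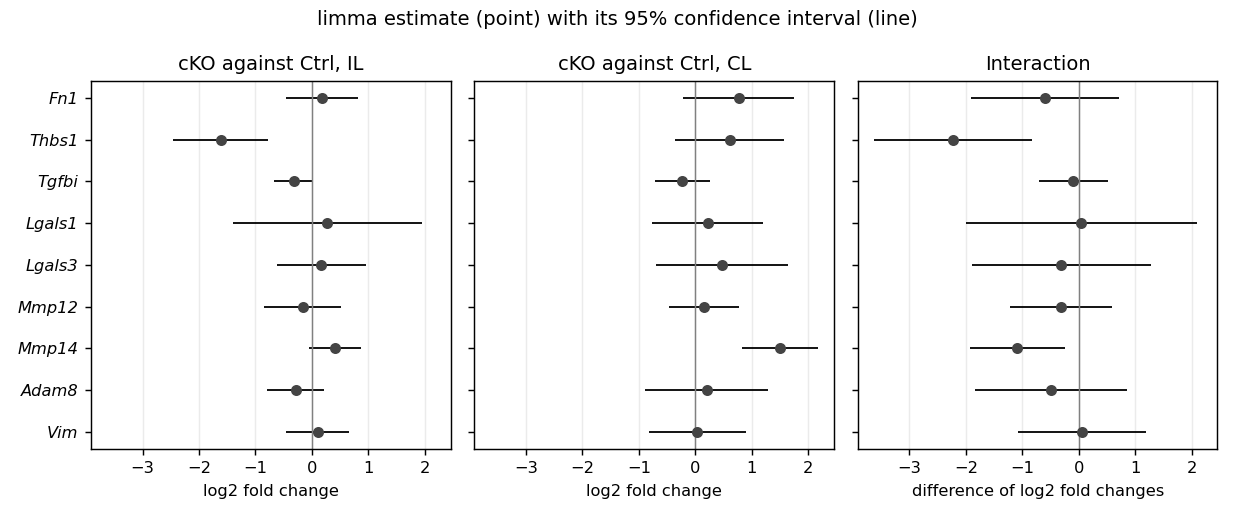
limma log2 fold changes (points) with 95% confidence intervals (lines) for cKO against Ctrl in IL and in CL, and the interaction, which is the IL fold change less the CL fold change. The interval lies below 0 for *Thbs1* in IL (-2.46 to -0.77) and above 0 for *Mmp14* in CL (0.83 to 2.16), and neither gene was called over all genes tested.

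The interaction asked whether the difference between hemispheres differed between the genotypes. It was -2.23 for *Thbs1* (SE 0.65, interval -3.62 to -0.84, unadjusted p = 0.0040) and -1.09 for *Mmp14* (SE 0.39, interval -1.93 to -0.25, unadjusted p = 0.0143) in the limma fit over all 14 libraries. Both had an adjusted p of 0.9999. Over all alternatives, among them the mouse as a random effect (replicate block), the adjusted limma p of each was at least 0.466, and neither was called. In all, 0 of the 9 genes were called and 2 had an unadjusted p under 0.05, beside 0% of 18476 genes called and 2.6% with an unadjusted p under 0.05. For the other 7 genes the interaction lay between -0.59 and 0.06 and its interval held 0, and for *Lgals1* the interval reached from -2.002 to 2.09. Without 1 library at a time the *Fn1* interaction ranged from -1.21 to -0.0210. The interaction and the cKO against Ctrl comparisons share their libraries, so these values do not add to each other.

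The levels of the 9 genes were also set against each other over the libraries, which share the difference between hemispheres that the choice of the genes used. Over the 14 libraries, the 36 pairs had Pearson r of log2 values from 0.63 to 0.98, with a median of 0.88. With the group means taken out, r ranged from -0.30 for *Fn1* and *Mmp12* to 0.89 for *Lgals3* and *Vim*, with a median of 0.45, and *Lgals3* and *Adam8* were at 0.85. Among 9054 genes with at least 10 CPM on average, those most like the mean of the 9 over the 14 libraries included *Slc7a11*, the cystine and glutamate exchanger (r = 0.986), *Plin2*, a lipid droplet coat protein (0.986), *Apobec1*, a cytidine deaminase (0.981), and *Emilin2*, a matrix glycoprotein (0.981). With group means taken out they were *Cyp4f18* (0.981), *Gsn*, which encodes the actin-severing gelsolin (0.970), *Adgre5* (0.964), *Cfp*, which encodes properdin (0.961), and *Cd300ld* (0.942). These are descriptions over the same 14 libraries.

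Other genes of the same roles were read from lists, and for them the difference between hemispheres was tested. These lists were also chosen with earlier results of these data known, so their tests are not independent of that choice. Of 13 matricellular genes tested in Ctrl, 5 rose and 1 fell in IL, and of 14 in cKO, 6 rose. Of all genes, 3.63% rose and 2.96% fell in Ctrl and 12.8% rose and 9.52% fell in cKO, and the counts of the lists stand beside these shares. With the mouse as a fixed replicate block, 9.81% of all genes rose and 10.7% fell in Ctrl, and 8.89% and 4.93% in cKO. In cKO that block rests on the 2 mice that gave both hemispheres. Without the Ctrl IL library of mouse 3546 the shares were 4.8% and 3.65% in Ctrl. Without the cKO CL library of mouse 3592 they were 12.2% and 8% in cKO. *Spp1*, which encodes osteopontin, had the largest change, with 494 ± 526 CPM in Ctrl CL and 15058 ± 4221 CPM in Ctrl IL (log2 fold change 5.60, adjusted p = 0.0018) and a log2 fold change of 3.06 in cKO (adjusted p = 0.0064), which was 2.41 with the mouse as a replicate block. *Ecm1*, a secreted matrix protein, rose by 3.88 in Ctrl and 2.82 in cKO, or by 3.41 in cKO without the CL library of mouse 3592. *Emilin2* rose by 2.54 and 2.71 on the log2 scale. *Ccn1*, a matricellular integrin ligand, fell by 1.06 in Ctrl. With that block, 6 of the 13 rose and 4 fell in Ctrl.

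Of 14 receptors for matrix proteins, 5 rose in Ctrl IL, and in cKO 6 rose and 2 fell. *Cd36*, a receptor of thrombospondin-1, rose by 2.23 in Ctrl and 1.75 in cKO on the log2 scale, *Cd44*, the hyaluronan receptor, by 1.91 and 2.16, and *Itga5*, the alpha chain of a fibronectin receptor, by 1.40 and 1.56. The largest of the decreases in cKO was that of *Itga9*, which fell by 0.86. With the mouse as a replicate block, 8 rose and 1 fell in Ctrl, and 6 rose and 1 (*Itga9*) fell in cKO. Of 11 collagen and basement membrane genes, 4 rose in Ctrl and 6 in cKO. Without the cKO CL library of mouse 3592, which had 149.5 CPM of fibroblast and pericyte markers, 8 rose in cKO, and *Col3a1*, which is in both lists, was among them. The part of those cells in the collagen values was not tested. Of the genes that rose in both genotypes, *Col4a1*, a chain of basement membrane collagen, went from 4.19 ± 1.87 to 24.4 ± 12.4 CPM in Ctrl (log2 fold change 2.28, adjusted p = 0.0062) and rose by 2.36 in cKO.

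Other members of the same families were tested as well. None of the 4 other galectin genes tested was called in Ctrl, and 1 rose in cKO, *Lgals3bp*, which encodes a galectin-binding protein rather than a galectin (log2 fold change 1.15, adjusted p = 0.047). Without the cKO CL library of mouse 3592 it was not called. Of 9 other matrix metalloproteinases in Ctrl, *Mmp19* rose, from 1.40 ± 0.09 to 7.99 ± 1.72 CPM (log2 fold change 1.94, adjusted p = 0.0008), and in cKO it rose by 2.25 while *Mmp11* fell by 0.75. The *Mmp11* call was lost with the mouse as a replicate block, which in cKO rests on 2 mice, and without the cKO CL library of mouse 3592. Of 6 inhibitors, *Timp1* rose by 1.93 in both genotypes, with adjusted p of 0.0084 and 0.028. Without the cKO CL library of mouse 3592 the cKO value was 2.59, and without the Ctrl IL library of mouse 3546 the Ctrl value was 2.23. Of the other ADAM proteases *Adam9* rose by 1.21 in Ctrl and 1.10 in cKO, while *Adam22*, *Adam23* and *Adamts1* fell in cKO. With the mouse as a replicate block in Ctrl, 1 galectin-list gene rose, 1 metalloproteinase rose and 4 fell, 2 inhibitors rose and 1 fell, and 2 ADAM proteases rose and 1 fell, and in cKO 2 ADAM proteases rose and none fell. Without the cKO CL library of mouse 3592, 2 inhibitors rose in cKO, and 3 ADAM proteases rose and 2 fell. Of 14 intermediate filament genes and partners, 4 rose in Ctrl and 8 in cKO, among them *Plec*, the cytoskeletal linker plectin (2.46 and 2.16), *Anxa2* (1.82 and 2.41) and *Gfap*, the filament of astrocytes (1.85 and 1.95). Without the Ctrl IL library of mouse 3546, 6 of them rose in Ctrl. Of 10 genes of the TGF-beta axis, none rose, and *Tgfbr1*, a receptor of TGF-beta, fell by 1.02 in Ctrl and 1.11 in cKO, where *Smad7*, an inhibitor of TGF-beta signalling, fell by 0.62.

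Between cKO and Ctrl, 0 of 92 genes of these 9 lists were called in IL by limma, beside 0.356% of all genes called higher and 0.302% lower. Of the 92, 5 had an unadjusted p under 0.05, beside 8.9% of all genes. Without the Ctrl IL library of mouse 3546, 2 of 92 were called, *Smad7* higher in cKO (log2 fold change 0.91) and *S100a11* lower (-1.34), beside 0.879% of all genes higher and 0.843% lower. The same fit called the dissociation genes *Hspa1b* (-2.34) and *Hspa1a* (-1.60) and the endothelial *Slco1a4* (-1.37) lower and the dendritic cell gene *Cd209a* (1.33) higher in cKO, and the part of those cells and of dissociation in the values was not tested. In CL, 12 of 90 had an unadjusted limma p under 0.05, beside 9.81% of all genes. Of the 90, 2 were called, beside 0.465% of all genes higher and 0.41% lower. *Ccn1* was lower in cKO, at 21.2 ± 6.12 CPM against 57.4 ± 16.2 CPM (log2 fold change -1.40, adjusted p = 0.044), and *Smad7* was higher, at 179 ± 10.48 against 73.0 ± 30.8 CPM (log2 fold change 1.37, adjusted p = 0.015). Without the cKO CL library of mouse 3592, *Ccn1* was called and *Smad7* was not.

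**Figure D4:**
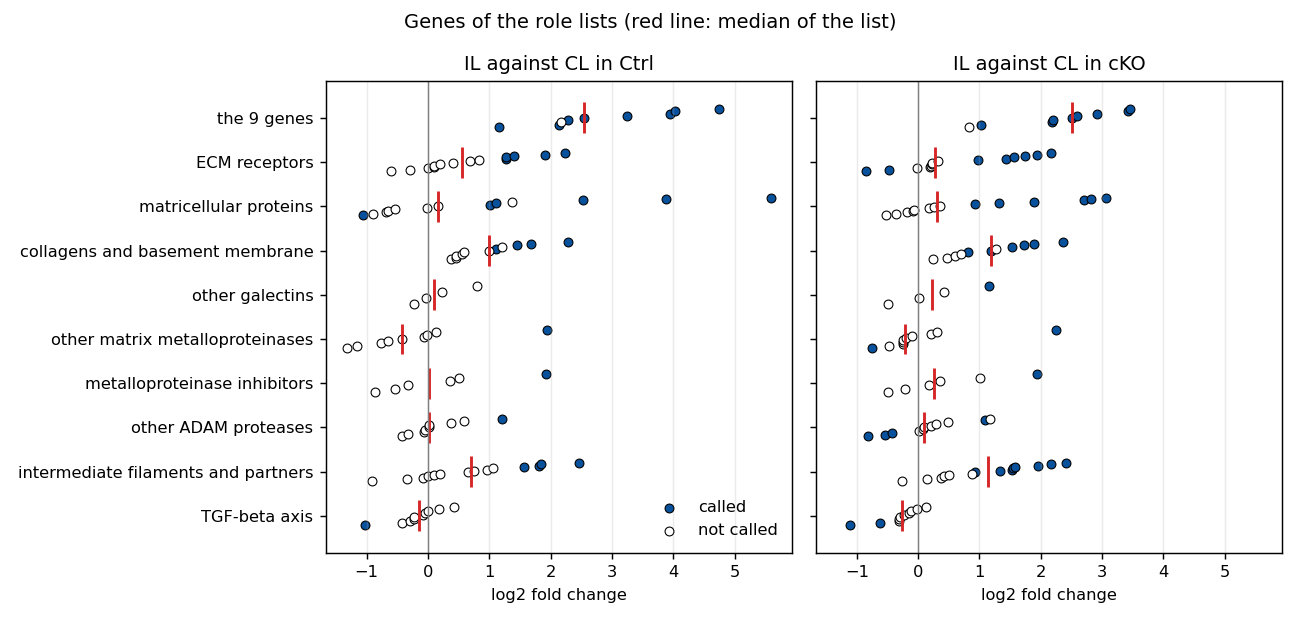
limma log2 fold changes of IL against CL in Ctrl (left) and cKO (right) for the 9 genes and for the genes of each role list, with filled points for called genes and a red line at the median of each list. The median of the 9 genes is 2.54 in Ctrl and 2.50 in cKO, and the other lists have medians from -0.42 to 0.997 in Ctrl and from -0.26 to 1.19 in cKO. The 9 genes are counted as chosen by this difference, so nothing is read from their higher median.

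Markers of other cells moved between the groups as follows. The homeostatic microglial markers fell together in IL, with 7 of 8 called lower in Ctrl and 7 in cKO, among them *P2ry12*. The summed infiltrating monocyte markers overlapped between hemispheres, at 86.2 to 719 CPM in Ctrl CL and 146 to 360 CPM in Ctrl IL, and at 96.7 to 215 and 177 to 249 CPM in cKO, with 2 of 7 called higher in each genotype. These were *Ccr2* and *F10* in Ctrl and *F10* and *Plac8* in cKO. The replicate block by mouse gave 2 higher and 1 lower in Ctrl and 3 higher in cKO, and 4 were higher in cKO without the CL library of mouse 3592. In cKO this block rests on the 2 mice that gave both hemispheres. Summed neutrophil markers were at 860 to 1364 CPM in Ctrl IL and 1365 to 8086 CPM in Ctrl CL, and 0 of 9 were called by limma there, although 7 fell with the mouse as a replicate block. In cKO they were at 825 to 1063 CPM in IL and 1283 to 2276 CPM in CL, and 6 of 9 fell. Border-associated macrophage markers summed to 145 to 479 CPM and overlapped between hemispheres, and *Ms4a7* was called higher in IL in both genotypes, while *Cbr2* was called lower in Ctrl (log2 fold change -0.90). The median log2 fold change of these 7 genes was -0.90 in Ctrl and -0.28 in cKO. In Ctrl 4 were lower and 1 higher with the mouse as a replicate block, and 3 lower and 2 higher without the IL library of mouse 3546, where *Cbr2* was no longer called. In cKO 2 were higher and 1 lower with the block, and 2 higher without the CL library of mouse 3592. Astrocyte markers were 177 to 221 CPM in CL and 100 to 157 CPM in IL, and most of this sum was *Slc1a3*, a glutamate transporter, which fell from 174 to 73.5 CPM in Ctrl and from 156 to 85.0 CPM in cKO on average. The median of the 7 astrocyte genes was 0.05 in Ctrl and 0.19 in cKO, where *S100b* was called higher (log2 fold change 0.82). The *S100b* call in cKO was lost with the mouse as a replicate block, and in Ctrl it was called higher with that block and without the IL library of mouse 3546. *Gja1*, a gap junction protein, was not called in cKO by the fit of all cKO libraries without a block. It was called higher with the block (log2 fold change 1.11) and without the CL library of mouse 3592 (1.43). Genes of the response to tissue dissociation were 23989 to 35412 CPM in CL and 16549 to 20403 CPM in IL, and of 9 tested 1 rose in Ctrl, and 1 rose and 4 fell in cKO. In Ctrl 4 fell with the mouse as a replicate block. No marker gene was at 0 throughout a group, and the part of these cells in the levels of the 9 genes was not tested.

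**Figure D5:**
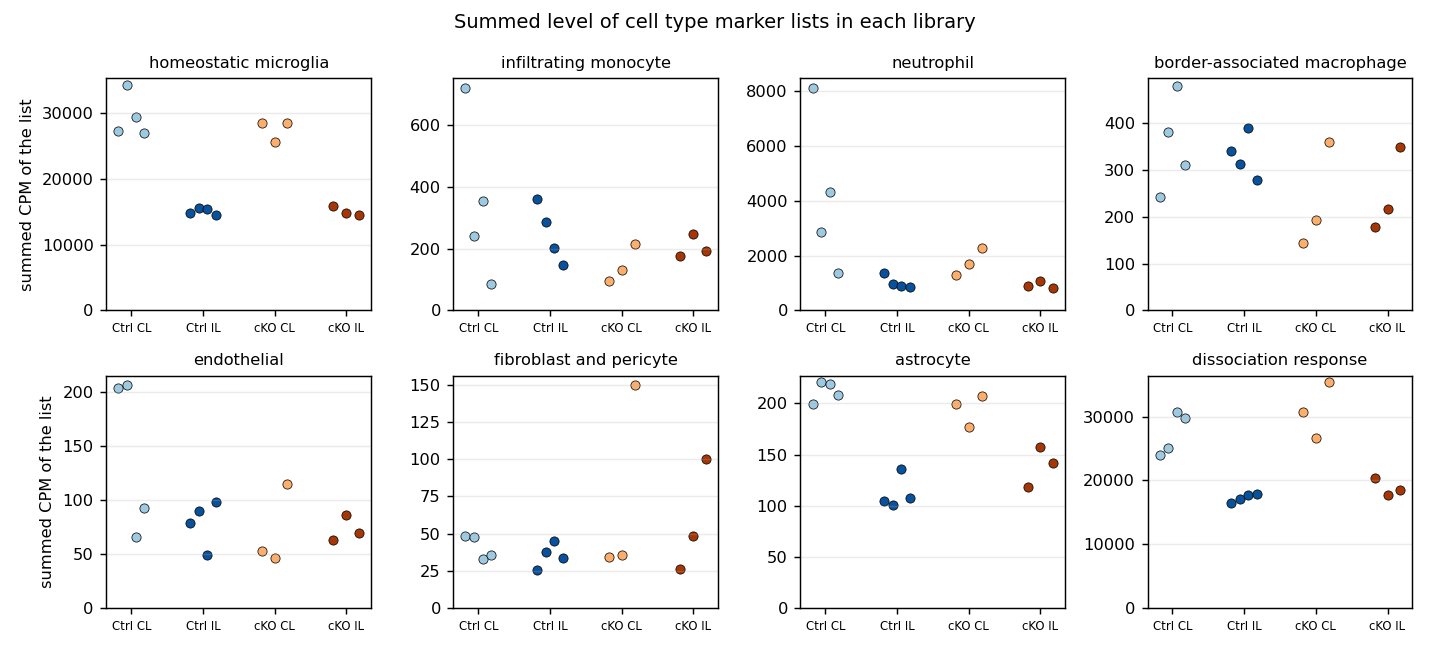
Summed CPM of 8 marker lists in each library, with a point per library and linear axes that start at 0. The homeostatic list lies at 14483 to 15807 CPM in all IL libraries and at 25520 to 34248 CPM in all CL libraries, whereas the monocyte list overlaps between hemispheres, and the cKO CL library of mouse 3592 stands out in the fibroblast and pericyte list at 149.5 CPM.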

How the data were processed

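CD11b+ cells of 14 hemispheres were sequenced from Smart Seq v4 libraries, a kit that does not mark strand, on a NovaSeq. Per the labels and the submitters' processing notes, the authors mapped reads with STAR to mm10 and used Partek 8.0. The counter and its annotation are not given in the sources used here. The deposited table, named raw counts, holds CPM for 33939 genes, since each library sums to 1e+06, and the authors' tables of their own comparisons were not used. Of the low deposited CPM values (under 100 reads), 75.3% to 81.1% were whole multiples, within 0.03, of the value of 1 read, from which depth was taken. As the rest were not whole, no count model was run.

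CPM were scaled by a trimmed mean of M-values without weights (30% of M and 5% of A trimmed), and log2(CPM + 1) was tested with limma 3.58.1 (trend) in R 4.3.3. A fold change is thus on the log2(CPM + 1) scale, which understates changes of low genes. Genes needed the CPM of 10 reads at median depth in at least the number of libraries in the smaller group, and 15 reads' worth in total, and all 9 genes passed in each comparison. P-values were adjusted over all genes tested by Benjamini-Hochberg, and a gene was called at an adjusted p of 0.05 or less with a change of 1.2-fold or more. Each comparison used its own libraries and the interaction used all 14. The fits were tested on simulated data. Exon lengths and positions came from GENCODE M21 (GRCm38), and BLAST 2.17.0 found no other transcript at least 90% identical to one of the 9 genes over 200 bases. Exons of opposite-strand genes overlapped *Fn1*, *Thbs1*, *Adam8* and *Mmp12* by 292, 208, 46 and 157 bases, and reads there cannot be told apart. The first 3 of these neighbours were at no more than 3.44 CPM, and the neighbour of *Mmp12* was not analysed here.

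The mouse numbers pair the hemispheres, because both come from the same animal. Deviations from group means correlated at 0.182 to 0.608 in the 6 same-mouse pairs and at -0.536 to 0.503 (median -0.215) in 19 other pairs. No 2 libraries held the same values. Named genes were the 9, up to 3 called genes with the largest change per role list and comparison, from the 2 most abundant genes of each marker list, and the 5 genes most like the mean z score of the 9 over libraries, with and without group means. Other genes were named after their values were seen: *Itga9*, *Adam23*, *F10*, *Plac8*, *Mobp*, *Cbr2*, *S100b*, *S100a11*, *Gja1*, *Hspa1a*, *Hspa1b*, *Slco1a4*, *Cd209a* and *Col3a1*. The 9 genes and the lists were chosen with earlier results of these data known. Alternatives were other pseudocounts, scalings, filters and thresholds, single fits of all libraries, the mouse as a block and leaving out each library. In cKO the fixed block takes the hemisphere difference from only the 2 mice that gave both hemispheres. Counts per list with the mouse as a block, without the Ctrl IL library of mouse 3546 or without the cKO CL library of mouse 3592, were chosen after seeing the data. The gene deleted in cKO and a gene from the search for similar patterns are not reported here. Python 3.11.15 with numpy 2.4.6, pandas 2.3.3 and matplotlib 3.10.9 did the remaining steps.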

Additional observations from a re-analysis of the deposited data

How the results depend on the processing

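With 3 or 4 libraries per group and a shallow Ctrl IL library (12.2 M reads), small differences between genotypes could not be resolved, and for *Lgals1* the interval between genotypes in IL spans more than 3 log2 units. The count of the 9 genes called in CL went from 0 to 1 (*Mmp14*) with a pseudocount of 0.5, upper-quartile scaling, median-ratio scaling, all 14 libraries in a single fit and that fit with the mouse as a random effect (replicate block), and from 0 to 1 over the fits that left out a library. In IL and for the interaction it stayed 0 under every alternative, and in the hemisphere comparisons it ranged from 7 to 9. Between genotypes the replicate block was run only on all 14 libraries together. There *Mmp14* in CL was called with and without the block, and no other of the 9 genes was called either way. With the mouse as a fixed replicate block, the number of all genes called went from 1078 to 3358 for IL against CL in Ctrl and from 3746 to 2315 in cKO. In cKO that block rests on 2 mice only, so pairing and the loss of mice cannot be told apart there. All 14 libraries in a single fit without a block gave 2009, 1391, 265 and 155 genes for IL against CL in Ctrl, in cKO, and between genotypes in CL and IL, where the comparisons of their own libraries gave 145 and 111. The mouse as a random effect in that single fit gave 4258, 3094, 290 and 190, and moved the interaction from 0 to 3. Without filtering, these 4 numbers were 535, 2436, 77 and 67, and at a fold change of at least 2 the hemisphere comparisons had 555 and 822. Genes above the filter level in every library gave 85 in CL. Leaving out a library gave 485 to 1413, 1881 to 3537, 70 to 168 and 46 to 284, and 0 to 1 for the interaction. The call of *Mmp12* in Ctrl was lost without filtering and that of *Lgals1* in cKO in the single fit without a block. In IL the extremes came without the cKO library of mouse 784 (46) and without the Ctrl library of mouse 3546 (284).

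Signs changed only for genes that were not called. With the mouse as a random effect (replicate block), the *Fn1* log2 fold change in IL was -0.00268 and the *Lgals1* interaction was -0.0590. Under upper-quartile scaling the interactions of *Lgals1* and *Vim* were -0.0503 and -0.0371, and under median-ratio scaling -0.0212 and -0.00687. Over the fits without 1 library, the log2 fold change in IL ranged for *Fn1* from -0.0351 to 0.35, for *Lgals1* from -0.50 to 0.63, for *Lgals3* from -0.0872 to 0.42, for *Vim* from -0.0487 to 0.25 and for *Mmp12* from -0.48 to 0.0868. In CL it ranged for *Lgals1* from -0.33 to 0.66, for *Lgals3* from -0.11 to 0.89, for *Mmp12* from -0.0262 to 0.35, for *Adam8* from -0.31 to 0.59 and for *Vim* from -0.39 to 0.31. The interaction ranged for *Tgfbi* from -0.32 to 0.20, for *Lgals1* from -0.79 to 0.62, for *Lgals3* from -0.72 to 0.29, for *Adam8* from -0.89 to 0.0416 and for *Vim* from -0.21 to 0.51. The cause of these changes was not tested.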

Other observations

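The remaining marker lists were low. Oligodendrocyte markers summed to 176 to 310 CPM per library, and in IL against CL 0 of 6 were called by limma in Ctrl while *Mbp* and *Mobp*, which encode myelin proteins, rose by 0.40 and 1.08 on the log2 scale in cKO. Under a fixed replicate block by mouse, 2 of the 6 fell in Ctrl and 0 were called in cKO, where that block rests on 2 mice. *Mobp* was also lower in cKO than in Ctrl in CL, by a log2 fold change of -1.70 (limma adjusted p = 0.046), a call that was lost without the cKO CL library of mouse 3592. T and NK cell markers summed to 2.31 to 12.0 CPM, and 2 of 3 fell in Ctrl IL, *Nkg7* and *Klrb1c*, 3 of 3 with the mouse as a replicate block and 1 without the IL library of mouse 3546. B cell markers summed to 16.1 to 43.4 CPM, dendritic cell markers to 13.5 to 63.1 CPM and neuronal markers to 2.48 to 20.3 CPM. No gene of these 3 lists was called between hemispheres or genotypes when each comparison used its own libraries without a block. In Ctrl with the mouse as a fixed replicate block, 1 B cell gene and 1 dendritic cell gene were lower in IL, and without the Ctrl IL library of mouse 3546 the dendritic cell list had 1 gene lower in IL and 1 higher in cKO than in Ctrl. Of 6 endothelial markers 0 were called between hemispheres by limma in either genotype (0 in Ctrl and 2 in cKO had an unadjusted p under 0.05), while 2 were lower in Ctrl with the mouse as a replicate block and 3 were higher in cKO without the CL library of mouse 3592.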
